A study of Mus musculus with 32 samples.

Results

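The endogenous opioid system of the mouse striatum was examined gene by gene in the RNA sequencing data of a congenic line and its B6 controls. The 9 genes described here, of the 23420 in the count tables, were taken by name. They comprise the 4 genes of the opioid receptor family (*Oprm1*, *Oprd1*, *Oprk1* and *Oprl1*), the 4 genes of the peptide precursors (*Penk*, *Pdyn*, *Pnoc* and *Pomc*) and *Ipcef1*, which overlaps *Oprm1* on the opposite strand. The B6 group consisted of 8 drug-naïve C57BL/6J mice, which the paper describes as wild-type littermates of the congenic mice. The B6.D2 congenic group consisted of 8 drug-naïve mice of Line 4a, which carry 1 copy of a chromosome 11 segment from DBA/2J on the C57BL/6J background. According to the paper both groups held females and males. All mice were about 50 days old, and the left and right striatal punches of each mouse, 3 mm wide according to the labels, were pooled into 1 library. The D2 segment is longer than a single gene, so effects of the genes within it cannot be told apart. None of the 9 genes lies on chromosome 11. The comparison asks whether the segment, which the study linked to a smaller locomotor response to methamphetamine, goes with a different level of opioid gene mRNA in untreated mice.

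Opioid peptides are cut from large precursors in the secretory pathway, released with classical transmitters, and bind receptors that couple to inhibitory G proteins. In the striatum the enkephalin precursor *Penk* is the classical marker of projection neurons of the indirect pathway, which carry the D2 dopamine receptor. The dynorphin precursor *Pdyn* is made by projection neurons of the direct pathway, which carry the D1 receptor. The mu receptor protein is known for its enrichment in striosomes, the delta and kappa receptors lie on neurons and incoming axons, and receptor mRNA in a punch comes only from cells whose bodies are inside it. In bulk tissue, fewer cells of a type and less RNA per cell cannot be told apart.

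Reads assigned to genes numbered 19032826 to 33748353 in the B6 mice and 24912413 to 32085311 in the Line 4a mice, with medians of 30222554.5 and 29352253.5. Striatal projection neuron markers were abundant in every mouse, with a summed level of 5912 to 8576 CPM (the counts of a gene per million-read library after TMM scaling, a correction for RNA composition) over 8 genes in B6 mice and 6400 to 7421 CPM in Line 4a mice. Markers of cortical glutamatergic neurons differed between the groups: a score of 9 such genes, the mean of their standardized log2 CPM, was 0.43 ± 0.62 (SD, n = 8) in B6 and -0.43 ± 0.65 (SD, n = 8) in Line 4a (exact two-sided permutation test, p = 0.0191). Of these 9 markers, 9 had a lower mean in Line 4a, 5 of them with an unadjusted p under 0.05 and 0 at a 5% false discovery rate (FDR, the Benjamini-Hochberg adjusted p over all genes) under edgeR's quasi-likelihood test, and the summed level ran from 178 to 254 CPM in B6 and from 153 to 221 CPM in Line 4a. None of the 9 was at 0 in any library. Another 6 cortical markers, which the study lists among its changed genes, were also lower, with an unadjusted p under 0.05 for each (edgeR's quasi-likelihood test). By the same test 45.1% of all genes tested were lower in Line 4a, and 5.14% were lower with an unadjusted p under 0.05. The 9 markers of the score were chosen with earlier results of these data known, so neither set is independent evidence of a direction.

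Libraries of 2 mice stood apart. In Line 4a mouse 1, 27.3% of the counted alignments were not unique, against 19.5% to 21.4% in the other 15 mice. The log2 CPM of this mouse deviated from the median of its group by 0.643 (root mean square over genes). The corresponding deviation was 0.429 in B6 mouse 8 and 0.189 to 0.313 in the other 14 mice. Both mice are kept in all values unless stated, and values without them are given beside results that they moved.

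Among the opioid genes *Penk* was by far the most abundant and *Oprm1* by far the least. Levels between genes were compared per kilobase of annotated exon, as the mean over the 16 mice. The order was *Penk* at 736 CPM per kb, *Oprl1* at 9.81, *Pdyn* at 7.02, *Oprd1* at 6.74, *Oprk1* at 6.28, *Ipcef1* at 3.08, *Pnoc* at 2.09, *Pomc* at 1.64 and *Oprm1* at 0.104. *Penk* was above *Oprl1*, *Oprl1* above *Pdyn*, *Oprk1* above *Ipcef1* and *Pomc* above *Oprm1* in 16 of 16 mice. *Pdyn* and *Oprd1* could not be ranked, since *Pdyn* was the higher of the pair in 8 of 16 mice, and the order of *Oprd1* over *Oprk1*, *Ipcef1* over *Pnoc* and *Pnoc* over *Pomc* held in 13 of 16 mice each. *Penk* ranked 14 of the 14628 tested genes with a known exon length, while 0.827% of those genes lay below *Oprm1*. The length used for *Oprm1*, 8156 bp, is the union of all its annotated exons, so a transcript that uses fewer of them has a higher level per kilobase than the value given. Reads in exons of both *Oprm1* and *Ipcef1* were assigned to neither gene, and how many *Oprm1* lost in this way was not tested.

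**Figure D1:**
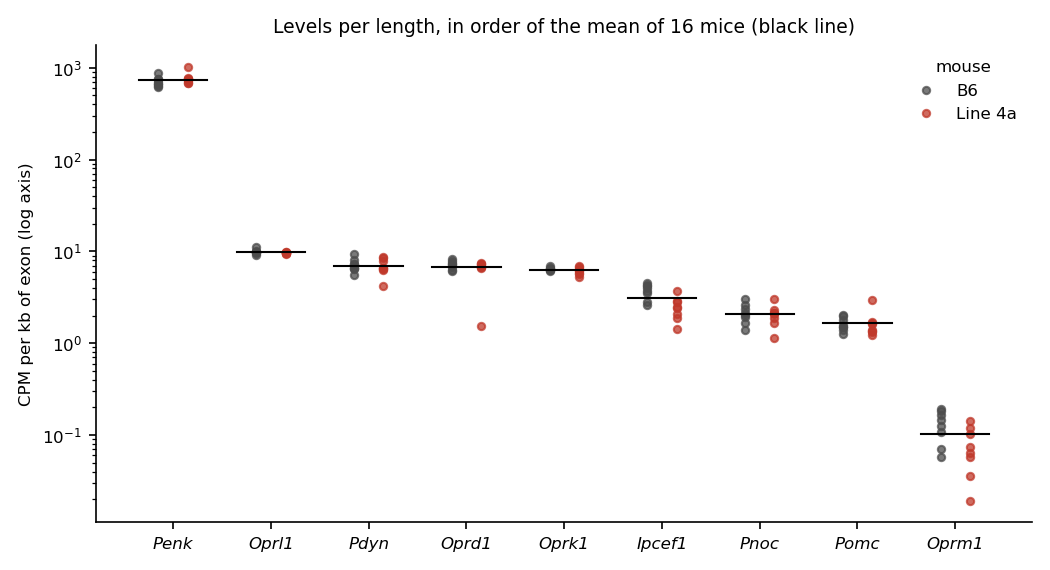
Level of each gene per kilobase of exon (CPM per kb, log axis), with 1 point per mouse for B6 (grey) and Line 4a (red) and a black line at the mean of the 16 mice. *Penk* lies near 736 CPM per kb, 6 of the other genes lie between about 1.64 and 7.02 and *Oprl1* at 9.81, and *Oprm1* lies at 0.104.

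None of the 9 genes differed between the genotypes at a 5% FDR under edgeR's quasi-likelihood test over 15589 genes, and DESeq2 and edgeR's likelihood ratio test also called 0 of the 9. Over all genes the test called 1 gene, or 0.00641% (*Tnip1*, named after its values were seen). *Ipcef1* and *Oprm1*, the overlapping pair, had an unadjusted p under 0.05, both with the lower level in Line 4a, so 2 of 9 stand against 10% of all genes tested (1559 genes) in either direction and 5.14% in that direction. For the remaining 7 genes the difference was within the spread between mice. In all, 7 of the 9 had a lower and 2 a higher mean in Line 4a, where 45.1% of all genes tested were lower. The median log2 fold change of the 9 was -0.07, against 0.01 over all genes. Without the 2 libraries that stood apart, 1 of 9 genes, *Ipcef1*, had an unadjusted p under 0.05, where 12.8% of all genes did.

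**Figure D2:**
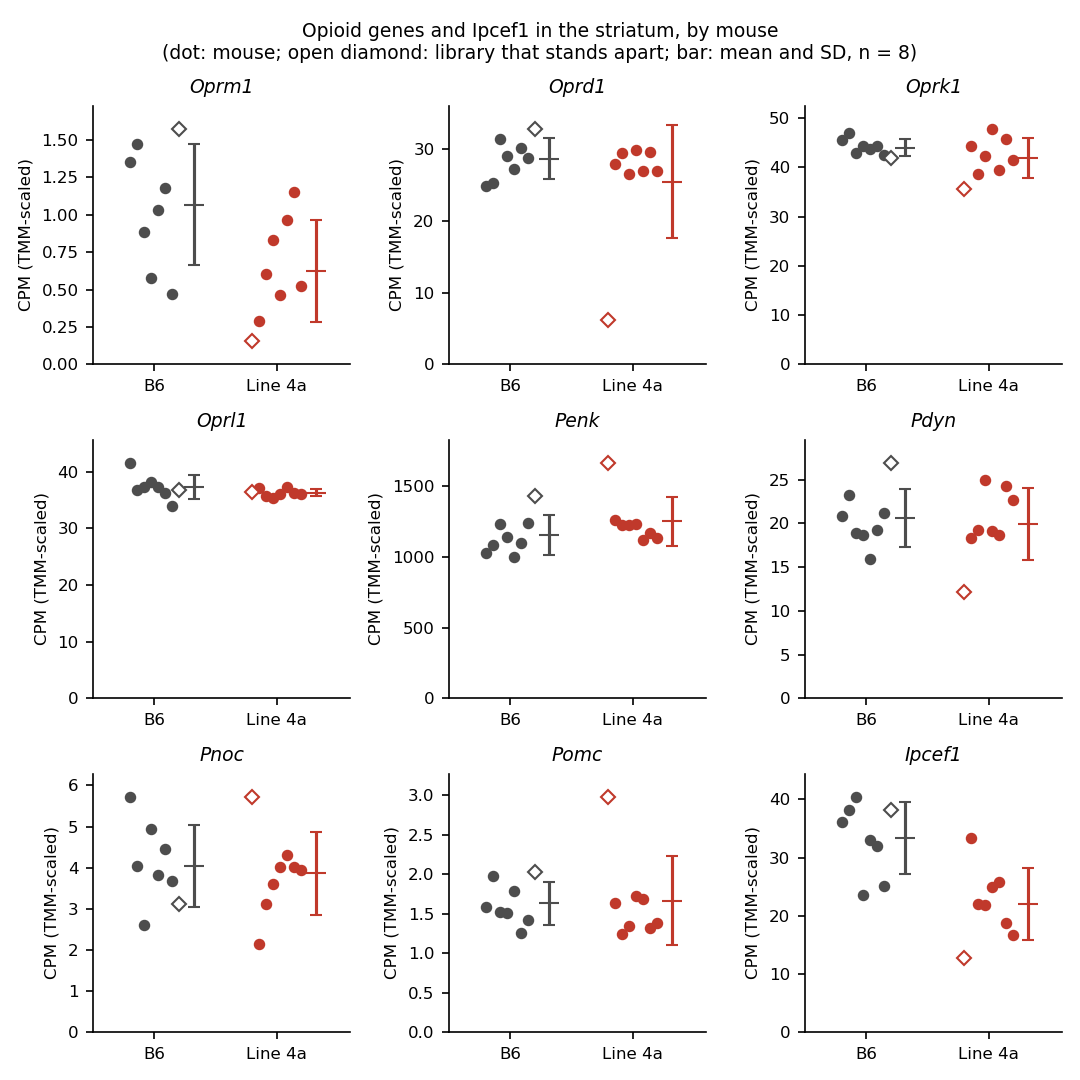
TMM-scaled CPM (linear axis from 0) of each gene in 8 B6 and 8 Line 4a mice, with the mean and SD beside the points and open diamonds for B6 mouse 8 and Line 4a mouse 1. *Ipcef1* is the gene for which each of the 8 Line 4a points lies under the median of B6, 34.5 CPM, and the lone low point of *Oprd1*, at 6.21 CPM, is Line 4a mouse 1.

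*Oprm1* encodes the mu opioid receptor, the main target of morphine and a receptor of the enkephalins and endorphin. In the mouse genome build mm10, which is used for all positions, it spans chr10:6758593-7038209 on the plus strand. Its level in B6 mice had a lowest value of 0.472 CPM, a median of 1.11 and a highest of 1.57, with a mean of 1.07 ± 0.403 CPM (SD, n = 8). Line 4a had a lowest value of 0.157 CPM, a median of 0.564 and a highest value of 1.15, with a mean of 0.623 ± 0.338 CPM (SD, n = 8). The groups overlapped widely, although 7 of 8 Line 4a mice were under the B6 median and 4 B6 mice were above every Line 4a mouse. The log2 fold change was -0.80 (SE 0.31, 95% interval -1.46 to -0.14; unadjusted p = 0.0199, FDR = 0.438 in edgeR's quasi-likelihood test), and an exact two-sided permutation test of log2 CPM gave p = 0.0384.

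The mu receptor value rests on few reads. Each mouse had between 5 and 49 reads on *Oprm1*, with a median of 24.5, so that counting error alone was about 20.1% of a mouse's value. The spread between mice exceeded it, with a coefficient of variation of 37.8% in B6 and 54.2% in Line 4a. The biological coefficient of variation that edgeR estimated for *Oprm1* was 39.2%, against a median of 17.7% for the 500 genes nearest to it in level. Line 4a mouse 1 had the lowest and B6 mouse 8 the highest *Oprm1* of all 16 mice, and without these libraries the log2 fold change was -0.56 (SE 0.28, unadjusted p = 0.0608, FDR = 0.413 in edgeR's quasi-likelihood test). It was -1.20 (SE 0.47) among mice run on lanes 5 and 6 and -0.52 (SE 0.36) among those run on lanes 7 and 8.

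*Oprd1* (chr4:132110188-132144486) encodes the delta receptor, which binds enkephalins. It lay at 24.9 to 32.8 CPM in B6 mice with a median of 28.9. In Line 4a it ran from 6.21 to 29.9 CPM with a median of 27.5. The low end is a single animal: Line 4a mouse 1 had 6.21 CPM and the other 7 Line 4a mice had 26.6 to 29.9 CPM. The log2 fold change was -0.17 (SE 0.20; FDR = 0.785 in edgeR's quasi-likelihood test; exact permutation p = 0.363), and it was -0.03 without that mouse and 0.00 (SE 0.05, FDR = 0.990) without both libraries that stood apart. In those 14 mice the means were 28.1 ± 2.45 CPM in B6 and 28.2 ± 1.43 CPM in Line 4a (SD, n = 7 each).

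*Oprk1* (chr1:5588450-5606134), which encodes the kappa receptor for dynorphins, varied little. It ranged from 41.8 to 46.9 CPM with a median of 44.1 in B6 and from 35.6 to 47.8 CPM with a median of 41.9 in Line 4a. The lowest value was again that of Line 4a mouse 1, and 4 of 8 Line 4a mice were below every B6 mouse while 1 lay above every B6 mouse. The log2 fold change was -0.07 (SE 0.05, 95% interval -0.19 to 0.04; FDR = 0.664 in edgeR's quasi-likelihood test; exact permutation p = 0.178).

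*Oprl1* (chr2:181715000-181720985) encodes the nociceptin receptor, the family member that does not bind classical opioids with high affinity. Its level was 34.0 to 41.5 CPM with a median of 37.1 in B6 and 35.3 to 37.3 CPM with a median of 36.2 in Line 4a, a range that lies inside that of B6. It was the steadiest of the 9 genes, with a biological coefficient of variation of 6.16% against a median of 9.05% for the 500 genes nearest in level, and 3.4% of those 500 were steadier. The log2 fold change was -0.04 (SE 0.04, 95% interval -0.12 to 0.04; FDR = 0.745 in edgeR's quasi-likelihood test; exact permutation p = 0.260).

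Set against each other per kilobase, the receptor mRNAs of B6 mice were made up of 42.0% ± 1.89 *Oprl1*, 30.2% ± 2.70 *Oprd1*, 27.2% ± 1.32 *Oprk1* and 0.551% ± 0.205 *Oprm1* (SD, n = 8). In Line 4a the shares were 44.1% ± 6.14, 27.8% ± 7.52, 27.7% ± 2.02 and 0.336% ± 0.173 (SD, n = 8). The share of *Oprm1* differed with p = 0.0427 in an exact permutation test over mice and those of the other 3 receptors with p between 0.505 and 0.598; these 4 tests use the same reads as the tests of the single genes and are not further evidence. The highest *Oprl1* share of any mouse, 59.0%, and the lowest *Oprd1* share, 9.37%, were both those of Line 4a mouse 1.

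*Penk* (chr4:4133536-4138815) encodes proenkephalin, the precursor of the enkephalins. It ranged from 996.9 to 1425 CPM with a median of 1116 in B6 mice and from 1119 to 1660 CPM with a median of 1223 in Line 4a mice. The lowest Line 4a value, 1119 CPM, lay just above the B6 median of 1116 CPM, and 4 B6 mice lay within the Line 4a range. The means were 1153 ± 140 and 1251 ± 173 CPM (SD, n = 8 each), or 0.115% and 0.125% of the reads counted on genes.

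The *Penk* difference was smaller than the spread between mice, with a log2 fold change of 0.12 (SE 0.08, 95% interval -0.06 to 0.29; FDR = 0.644 in edgeR's quasi-likelihood test; exact permutation p = 0.216). The highest level in each group was that of the library that stood apart, 1660 CPM in Line 4a mouse 1 and 1425 CPM in B6 mouse 8. Without them the means were 1114 ± 93.5 and 1192 ± 53.6 CPM (SD, n = 7 each) and the log2 fold change was 0.09 (SE 0.05, FDR = 0.430). The direction differed between the lane pairs, with 0.26 (SE 0.12) on lanes 5 and 6 and -0.04 (SE 0.10) on lanes 7 and 8, and the test of that difference gave FDR = 0.950 (edgeR's quasi-likelihood test).

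*Pdyn* (chr2:129686549-129699938) encodes prodynorphin, whose products act on the kappa receptor. Its level was 16.0 to 26.9 CPM with a median of 20.02 in B6 mice and 12.2 to 24.9 CPM with a median of 19.2 in Line 4a mice. The ranges overlapped almost fully, and the extremes were the libraries that stood apart, with B6 mouse 8 highest and Line 4a mouse 1 lowest. The log2 fold change was -0.05 (SE 0.12, 95% interval -0.31 to 0.21; FDR = 0.908 in edgeR's quasi-likelihood test; exact permutation p = 0.673), and 0.09 (SE 0.09, FDR = 0.675) without these 2 libraries.

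*Pnoc* (chr14:65400673-65425564), the precursor of nociceptin, and *Pomc* (chr12:3954945-3960643), the precursor of beta-endorphin, ACTH and melanocortins, were both low. *Pnoc* ranged from 2.61 to 5.72 CPM with a median of 3.93 in B6 and from 2.15 to 5.71 CPM with a median of 3.98 in Line 4a. *Pomc* ranged from 1.25 to 2.03 CPM with a median of 1.55 in B6 and from 1.24 to 2.98 CPM with a median of 1.52 in Line 4a. For both genes the medians nearly coincided and the groups overlapped, with Line 4a mouse 1 as the highest Line 4a mouse. Log2 fold changes were -0.07 (SE 0.17) for *Pnoc* and 0.03 (SE 0.17) for *Pomc*, with FDRs of 0.910 and 0.965 in edgeR's quasi-likelihood test. Without the libraries that stood apart they were -0.23 (SE 0.16, FDR = 0.549) for *Pnoc* and -0.10 (SE 0.12, FDR = 0.745) for *Pomc*, and with the cortical score as a covariate -0.29 (SE 0.21) and 0.13 (SE 0.22).

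*Pomc* is best known from the arcuate hypothalamus and the pituitary, so markers of these tissues were read beside it. Of 10 hypothalamic markers 6 passed the filter on low counts, and their summed level was 76.8 to 91.8 CPM in B6 mice and 68.2 to 115 CPM in Line 4a mice, most of it from *Npy*, which striatal interneurons also make. *Agrp*, which marks the other well known neurons of the arcuate nucleus, was at 0.679 ± 0.169 and 0.668 ± 0.172 CPM (SD, n = 8 each). Of 5 pituitary markers 1 passed, *Tshb*, at 0.196 to 0.840 CPM in B6 and 0.278 to 0.593 CPM in Line 4a. The pituitary hormone genes *Gh* and *Prl* were at 0 in some libraries and reached 0.303 and 0.698 CPM in B6 and 5.06 and 7.18 CPM in Line 4a, both highest in Line 4a mouse 3, the mouse with the lowest *Pomc* of Line 4a, 1.24 CPM. In Line 4a mouse 1, which had the highest *Pomc*, they were at 2.195 and 3.14 CPM. The part of such tissue in the *Pomc* values was not tested.

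Ratios within a mouse do not depend on the scaling of its library. The log2 ratio of *Pdyn* to *Penk* was -5.81 ± 0.17 in B6 and -5.99 ± 0.49 in Line 4a (SD, n = 8 each; exact permutation p = 0.409). The log2 level of *Penk* less that of 5 markers of D2 projection neurons, among them *Drd2* and *Adora2a*, was 4.24 ± 0.06 in B6 and 4.33 ± 0.21 in Line 4a (exact permutation p = 0.253, n = 8 each). The log2 level of *Pdyn* less that of 5 markers of D1 projection neurons, among them *Drd1a* and *Tac1*, was -1.52 ± 0.21 and -1.63 ± 0.35 (exact permutation p = 0.478, n = 8 each). For *Penk*, 15 of 16 mice lay between 4.16 and 4.33, with Line 4a mouse 1 at 4.85. Without Line 4a mouse 1 the differences between genotypes shrank from -0.18 to -0.0226 for *Pdyn* to *Penk*, from 0.09 to 0.0172 for *Penk* to D2 markers and from -0.11 to -0.00614 for *Pdyn* to D1 markers.

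*Ipcef1* encodes a protein that interacts with cytohesins, the exchange factors of the small GTPase Arf6. It lies at chr10:6885779-7054782 (mm10) on the minus strand, so 152431 bp, or 90.2% of its span and 54.5% of the span of *Oprm1*, are shared. In the GENCODE annotation of mm9, exons of the pair shared 96 bp. The reads were aligned to mm10, for which the shared exon length was not measured. The library kit keeps the strand, but the reads were counted without it, and reads in exons of both genes were assigned to neither. A read from an intron or an unannotated part of either gene that falls in an exon of the other cannot be told apart from a read of that other gene. How many of the reads on *Oprm1* are of this kind was not tested.

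**Figure D3:**
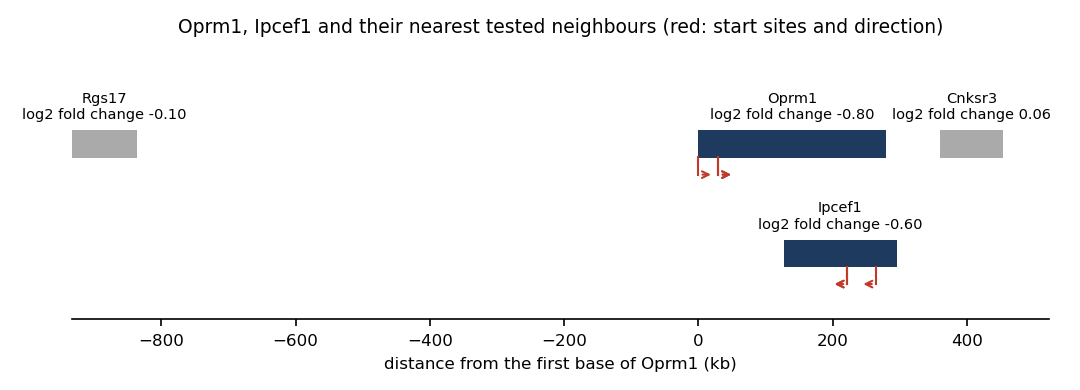
Spans of *Oprm1*, *Ipcef1* and the nearest tested protein coding gene on either side along the chromosome (kb from the first base of *Oprm1*), with RefSeq start sites and directions in red and the log2 fold change of each gene. *Oprm1* (-0.80) and *Ipcef1* (-0.60) overlap, while *Rgs17* (-0.10) and *Cnksr3* (0.06) lie outside.

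*Ipcef1* had the smallest p of the 9 genes and ranked 58 of 15589. In B6 mice its lowest value was 23.7 CPM, the median 34.5 and the highest 40.4, with a mean of 33.3 ± 6.19 CPM (SD, n = 8). Line 4a mice had a lowest value of 12.8 CPM, a median of 21.98 and a highest of 33.3, with a mean of 22.1 ± 6.26 CPM (SD, n = 8). Each of the 8 Line 4a values was under the median of B6, as for 4.34% of all genes tested, and 5 of 8 were below every B6 mouse. *Ipcef1* was 1.51-fold lower in Line 4a, with a log2 fold change of -0.60 (SE 0.16, 95% interval -0.93 to -0.27; unadjusted p = 0.00129, FDR = 0.331 in edgeR's quasi-likelihood test; exact permutation p = 0.00404). Its FDR was lower in the other tests, 0.0668 in DESeq2 and 0.0752 in edgeR's likelihood ratio test, but above 5% in both.

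The difference was of like size in both lane pairs and smaller with the cortical markers in the model. It was -0.62 (SE 0.26) on lanes 5 and 6 and -0.58 (SE 0.16) on lanes 7 and 8. Without the 2 libraries that stood apart it was -0.49 (SE 0.14, unadjusted p = 0.00242, FDR = 0.234 in edgeR's quasi-likelihood test). With the cortical score as a covariate it was -0.25 (SE 0.14, unadjusted p = 0.0886, FDR = 1.00), whereas *Oprm1* moved from -0.80 to -0.71 (SE 0.43). In that fit 2.02% of all genes had an unadjusted p under 0.05, against 10% without the covariate, and 0 of the 9 genes did. The markers of the score were chosen with earlier results of these data known. The score itself differed between the genotypes, so this fit cannot fully separate genotype from score for any gene.

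**Figure D4:**
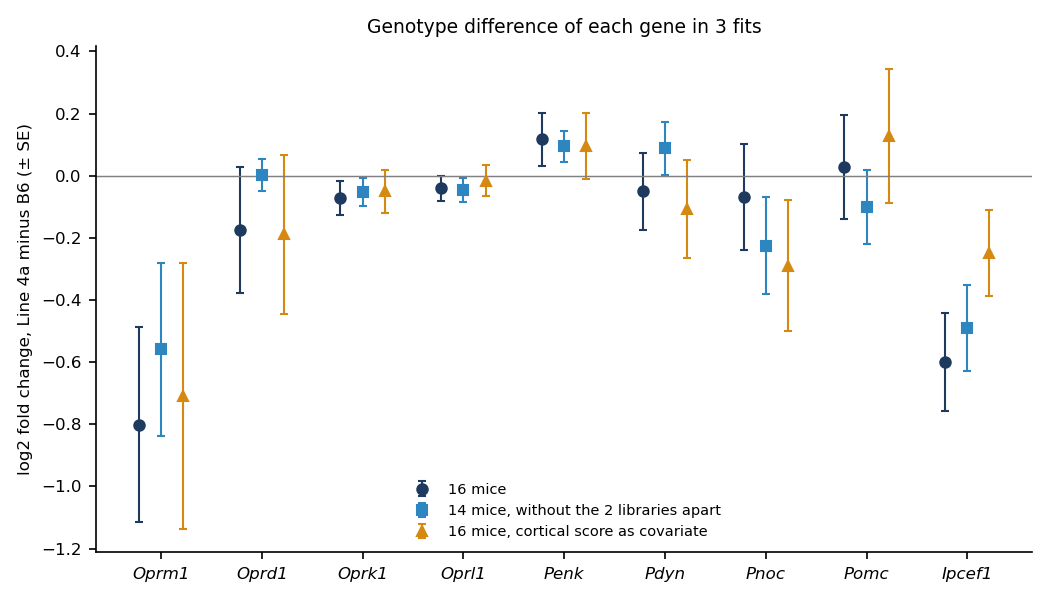
Log2 fold change of each gene (Line 4a minus B6, ± SE) from all 16 mice, from the 14 mice without the libraries that stood apart, and from all 16 mice with the cortical score as a covariate. *Ipcef1* is at -0.60, -0.49 and -0.25 and *Oprm1* at -0.80, -0.56 and -0.71, while *Pnoc* is at -0.07, -0.23 and -0.29.

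Within genotypes *Ipcef1* was higher in mice with a higher cortical score. After removal of the genotype means, log2 CPM of *Ipcef1* and the score correlated with Pearson's r = 0.72 over 16 mice (permutation p = 0.00145, Benjamini-Hochberg adjusted p = 0.0217) and Spearman's rho = 0.70 (permutation p = 0.00313, adjusted p = 0.0469). The relation held with r = 0.79 without the 2 mice farthest from the median of *Ipcef1*, with r = 0.87 without the libraries that stood apart, and within both lane pairs (r = 0.81 and r = 0.80, 8 mice each). The part of cortical tissue in the *Ipcef1* difference was not tested beyond these values.

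No other of the 15 pairs examined passed after adjustment. *Oprm1* and the cortical score gave r = 0.09 (permutation p = 0.743, adjusted p = 0.833) and rho = 0.08 (permutation p = 0.762, adjusted p = 0.817), with r = -0.20 without the 2 farthest mice and r = 0.27 and 0.28 in the lane pairs. For *Oprm1* against *Ipcef1* themselves, r was 0.44 (permutation p = 0.0869, adjusted p = 0.235) and rho 0.27 (permutation p = 0.315, adjusted p = 0.594). That value rested on a pair of mice, since r was -0.04 without Line 4a mouse 1 and B6 mouse 7. It was 0.13 without the libraries that stood apart, 0.50 on lanes 5 and 6 and 0.46 on lanes 7 and 8. *Penk* and *Oprm1* gave r = -0.53 (permutation p = 0.0341, adjusted p = 0.235) and rho = -0.53 (permutation p = 0.0379, adjusted p = 0.284). For this pair of genes r was -0.10 without Line 4a mouse 1 and B6 mouse 7, but -0.60 without the libraries that stood apart. It was -0.81 on lanes 5 and 6 and -0.13 on lanes 7 and 8. *Penk* and *Pdyn* gave r = -0.24 (permutation p = 0.362, adjusted p = 0.603) and rho = -0.10 (permutation p = 0.701, adjusted p = 0.809), with r = 0.04 without the libraries that stood apart, and opposite signs on lanes 5 and 6 (-0.85) and lanes 7 and 8 (0.61). The remaining pairs, *Oprd1* with *Penk*, *Oprk1* with *Pdyn*, *Oprl1* with *Pnoc* and the other 7 members with the score, had adjusted p-values of at least 0.235 for r and 0.532 for rho.

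**Figure D5:**
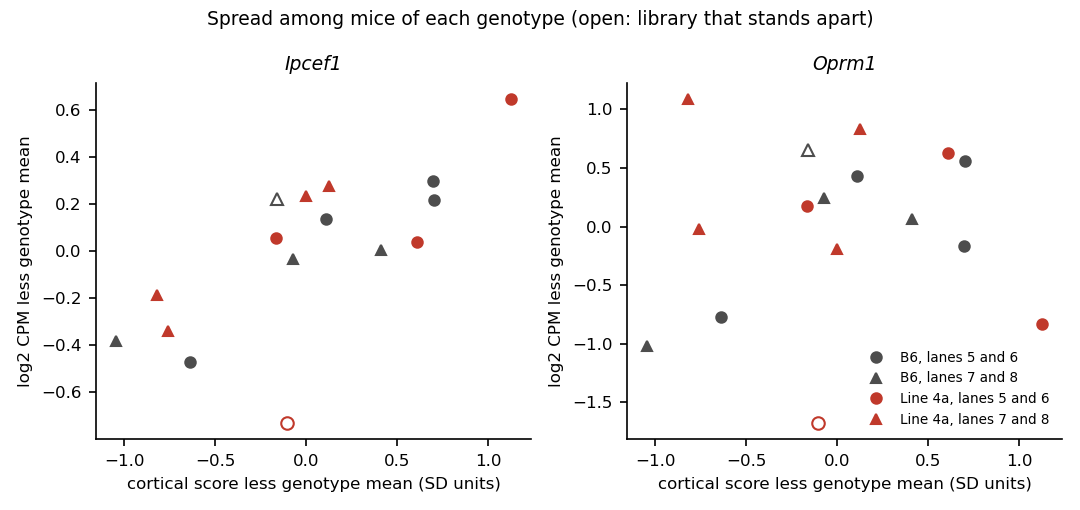
Log2 CPM of *Ipcef1* (left) and *Oprm1* (right) against the cortical marker score in 16 mice, each less the mean of its genotype, with circles for lanes 5 and 6, triangles for lanes 7 and 8 and open symbols for the libraries that stood apart. The points of *Ipcef1* climb with the score (r = 0.72) and those of *Oprm1* scatter (r = 0.09).

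The log2 ratio of *Ipcef1* to *Oprm1* counts was 5.02 ± 0.41 in B6 and 5.27 ± 0.90 in Line 4a (SD, n = 8 each; exact permutation p = 0.488), a difference of 0.25 that was within the spread between mice and was 0.0543 without the libraries that stood apart. The ratio spread more in Line 4a, from 4.00 to 6.75, than in B6, from 4.59 to 5.66, and counting error of *Oprm1* enters it. The nearest tested genes outside the overlap did not pass a 5% FDR either. *Rgs17*, a regulator of G protein signalling 836180 bp before *Oprm1*, was at 87.2 ± 11.8 CPM in B6 and 81.5 ± 4.22 CPM in Line 4a (SD, n = 8 each; log2 fold change -0.10, FDR = 0.647 in edgeR's quasi-likelihood test), and *Cnksr3*, a scaffold protein gene 64278 bp past *Ipcef1*, was at 11.1 ± 1.25 and 11.5 ± 1.87 CPM (log2 fold change 0.06, FDR = 0.869). Each of the 8 Line 4a values of *Rgs17* was under the median of B6, and its log2 fold change was -0.17 (SE 0.05, unadjusted p = 0.00544, FDR = 0.259 in edgeR's quasi-likelihood test) without the libraries that stood apart and -0.0222 (SE 0.09) with the cortical score as a covariate.

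The genes whose levels followed those of 4 members most closely over the 16 mice, less the genotype means, were sought among 14207 genes with a mean of at least 1 CPM. For *Oprm1* they were *Ptar1* (r = 0.91), *Erbb4*, *Lnpep*, *Ptpn4* and *Ppp2r5e* (r = 0.88), and *Ipcef1* was not among them. For *Ipcef1* they were *Atrnl1* (r = 0.93), *Pgm2l1*, *Opcml*, *4930539E08Rik* and *Trim37* (r = 0.91), and for *Penk* they were *Ppp1r1b* and *Hpca* (r = 0.97 each), *Gnb5*, *Tac1* and *Msra* (r = 0.95). For *Pdyn* they were *Slc39a9* (r = 0.93), *Ankrd6*, *Tmem164*, *Scn3b* and *Cntnap3* (r = 0.89). Without the libraries that stood apart the same 20 pairs had r between 0.75 and 0.97; these are the highest of many correlations and describe the libraries only.

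The genes that make, degrade and transduce opioid peptides were read from 6 lists, of which 47 genes were tested. Of these, 20 had a higher and 27 a lower mean in Line 4a, where 45.1% of all genes tested were lower. The median log2 fold change of the 47 was -0.01 against 0.01 over all genes, and 0 passed a 5% FDR under edgeR's quasi-likelihood test. An unadjusted p under 0.05 was found for 9 of 47, or 19.1% against 10% of all genes, 2 of them higher (*Arrb2*, *Npff*) and 7 lower (*Pcsk1*, *Pam*, *Gnaz*, *Kcnj3*, *Kcnj6*, *Kcnj9*, *Adrbk1*). The count was 11 of 47 without the libraries that stood apart, where 12.8% of all genes had such a p, and 1 of 47, *Pcsk1*, with the cortical score as a covariate, where 2.02% did. DESeq2 and edgeR's likelihood ratio test each called 1 of the 47 at an FDR of 5%, *Pcsk1* (FDR = 0.0157 and 0.0257), where they called 0.135% and 0.128% of all genes.

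Of 7 peptide processing genes, 4 were lower and 3 higher. *Pcsk1*, the prohormone convertase that makes the first cuts in opioid precursors, was at 11.04 ± 0.990 CPM in B6 and 7.95 ± 1.47 CPM in Line 4a (SD, n = 8 each), each Line 4a value under the median of B6 (log2 fold change -0.47, SE 0.10; FDR = 0.292 in edgeR's quasi-likelihood test). With the cortical score as a covariate it was -0.43 (SE 0.13). *Pcsk2*, the convertase that completes the cuts, was at 355 ± 46.6 and 323 ± 28 CPM (FDR = 0.548), *Pam*, the amidating enzyme, at 171 ± 9.57 and 154 ± 11.4 CPM (FDR = 0.385), and *Cpe*, the carboxypeptidase and the most abundant of the list per length, at 2132 ± 115 and 2169 ± 356 CPM (FDR = 0.927). Of 5 peptidase genes that break enkephalins down, 4 were higher and 1 lower, with 0 under an unadjusted p of 0.05. The smallest p among them was that of *Ece2*, at 39.0 ± 5.25 and 43.1 ± 3.41 CPM (FDR = 0.544), and *Npepps*, the most abundant per length, was at 187 ± 6.32 and 188 ± 8.01 CPM.

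Among 10 genes of G proteins and effectors through which the receptors act, 7 were lower and 3 higher, and the 4 with an unadjusted p under 0.05 were all lower, against 5.14% of all genes in that direction. With the cortical score as a covariate 0 of the 10 had such a p. *Kcnj6*, *Kcnj3* and *Kcnj9* encode GIRK potassium channel subunits that opioid receptors open. *Kcnj6* was at 7.36 ± 1.82 and 4.83 ± 1.71 CPM (log2 fold change -0.62, SE 0.21; FDR = 0.397 in edgeR's quasi-likelihood test), with -0.41 for *Kcnj3* and -0.25 for *Kcnj9*. With the cortical score as a covariate these became -0.16, -0.23 and -0.11. *Adcy5*, the main striatal adenylyl cyclase, was at 1240 ± 140 and 1229 ± 207 CPM (log2 fold change -0.01), and its sign turned without the libraries that stood apart (0.11, SE 0.05, unadjusted p = 0.0362, FDR = 0.364 in edgeR's quasi-likelihood test).

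Of 11 desensitization genes, 8 were lower and 3 higher. *Adrbk1*, which encodes the receptor kinase GRK2, was at 174 ± 9.41 and 156 ± 10.2 CPM (log2 fold change -0.15, SE 0.05; FDR = 0.361 in edgeR's quasi-likelihood test), and *Rgs4*, the most abundant per length, at 986 ± 156 and 959 ± 114 CPM. *Arrb2*, beta-arrestin 2, was at 34.3 ± 2.99 and 37.5 ± 2.46 CPM (log2 fold change 0.13, FDR = 0.479), and its log2 fold change was 0.0610 (unadjusted p = 0.125 in edgeR's quasi-likelihood test) without the libraries that stood apart. Its unadjusted p was 0.0504 by edgeR's likelihood ratio test. Of 8 genes of other opioid binding or modulating proteins, 7 were tested, 4 lower and 3 higher, led by *Npff*, the precursor of an anti-opioid peptide, at 1.51 ± 0.549 and 2.05 ± 0.265 CPM (log2 fold change 0.46, FDR = 0.463, and 0.26 with unadjusted p = 0.0536 without the libraries that stood apart, by edgeR's quasi-likelihood test). *Ogfrl1*, the most abundant per length of them, was at 178 ± 17.1 and 168 ± 10.9 CPM.

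No partner of the *Ipcef1* protein passed a 5% FDR. Of 7 genes of cytohesins, Arf6 and related scaffolds, 4 were higher and 3 lower, with 0 under an unadjusted p of 0.05 and log2 fold changes of 0.08 for *Cyth1*, -0.03 for *Cyth2* and 0.00 for *Arf6*. The smallest p was that of *Cnksr2*, a synaptic scaffold gene, at 162 ± 24.1 and 136 ± 30.1 CPM (log2 fold change -0.25, FDR = 0.540 in edgeR's quasi-likelihood test), and its log2 fold change was -0.12 without the libraries that stood apart. *Cyth1* was the most abundant per length of the list, at 95.9 ± 8.63 and 101 ± 5.97 CPM.

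The genotype difference of no member changed detectably between the mice run on lanes 5 and 6 and those run on lanes 7 and 8. The interaction of genotype and lane pair called 0 of 15589 genes at a 5% FDR (edgeR's quasi-likelihood test), with 293 genes, or 1.88%, at an unadjusted p under 0.05, and the lowest FDR among the 9 genes was 0.950. With 4 mice per genotype and lane pair, differences between the pairs as large as 0.70 on the log2 scale, that of *Oprm1* (SE 0.63), were within the error.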

How the data were processed

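Striatal mRNA of 16 mice was sequenced by the authors as 50 bp single reads from a stranded oligo-dT kit, with every library run on a pair of lanes. Their scripts and the submitters' processing notes state that reads were aligned to mm10 with TopHat and bowtie2 2.2.2, and HTSeq 0.6.1p1 counted them per gene without regard to strand. The authors deposited raw counts per gene, mouse and lane. Their own comparison tables (log2 fold changes, log2 CPM, likelihood ratio scores, p-values and FDR) were not used.

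Here the counts of the 31 lane files were summed per mouse, since the lanes of a mouse differed by little more than sampling noise (chi-square per degree of freedom 0.997 to 1.051). For B6 mouse 7, 1 lane file was analysed. Rows of unassigned reads were left out, and 61.4% to 68.3% of the counted alignments per mouse lay on genes. Genes passing filterByExpr (15589) were normalized with TMM and tested for genotype by quasi-likelihood in edgeR 4.0.16 (R 4.3.3), with Benjamini-Hochberg adjustment (FDR). Home cage, a covariate of the study's model, is not in the labels and could not be entered. Log2 CPM used a prior count of 0.5. Exact permutation tests used all 12870 relabellings of the mice, and correlations used 100000 permutations (scipy 1.17.1). The paper states that littermates of both sexes were used, but sex and litter were not in the model here. Nothing beyond the mouse numbers describes litters, so p-values measure the spread between these mice, with any differences of sex, litter and cage inside it.

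Positions are those of RefSeq on GRCm38 (mm10). Exon lengths came by symbol from GENCODE on mm9, for 14628 of the genes tested. No sequences are printed. The members, pathway lists and marker lists were chosen with earlier results of these data known. Named besides the members are, for each pathway list, the gene with the smallest p, the gene most abundant per length and further genes for their role, chosen after their values were seen. The alternatives tried were other normalizations, filters and tests, single lanes, lane files as samples, block terms, the cortical score, each lane pair and each mouse left out. The paper and the labels differ in punch size, age and RNA kit, and label values are given.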

Additional observations from a re-analysis of the deposited data

Results flagged for a closer look

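In groups of 8 mice, a value was picked out when its gap to the nearest mouse exceeded 0.526 of the range of the group. This occurred in 6 of 26 groups, where chance alone picks about 1 in 20, and all 6 concern Line 4a mouse 1. *Oprd1* was at 6.21 CPM in that mouse and at 26.6 to 29.9 CPM in the other 7. *Penk* was at 1660 CPM against 1119 to 1255 CPM, and *Pomc* at 2.98 CPM against 1.24 to 1.73 CPM. Its log2 ratio of *Pdyn* to *Penk* was -7.09 against -6.10 to -5.59, that of *Pdyn* to D1 markers -2.37 against -1.71 to -1.25, and that of *Penk* to D2 markers 4.85 against 4.20 to 4.33. The 6 values come from 1 library and are not independent. In the same library 27.3% of the counted alignments were not unique, and the housekeeping gene *Gapdh* was at 957 CPM against 588 to 633 CPM in the other 7 Line 4a mice. Whether the tissue, the RNA or the library preparation differed was not tested.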

How the results depend on the processing

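The direction of the *Oprm1* and *Ipcef1* differences held in every alternative that gave a value (29 and 30 of them, -1.20 to -0.52 and -0.71 to -0.25 on the log2 scale); requiring 1 CPM in 8 mice gave no *Oprm1* value. Both passed an FDR of 5% only with lane files counted as independent samples (-0.82 and -0.62), which treats 1 library as 2 replicates. The count of genes at an FDR of 5% over all genes, 1, became 21 with DESeq2, 20 with the likelihood ratio test, 1068 with lane files as samples, 2 with a lane pair block, 7 without the 2 libraries that stood apart, 0 with the cortical score and 0 in either lane pair, and 1 to 4 with single mice left out (4 without Line 4a mouse 1, 3 without Line 4a mouse 6). With the cortical score 1 pathway gene, against 9, had an unadjusted p under 0.05. Log2 differences turned sign on lanes 7 and 8 for *Oprk1* (0.0120), *Oprl1* (0.00791), *Penk* (-0.0363), *Pdyn* (0.0175), *Pnoc* (0.113), *Pomc* (-0.0989) and the ratios *Pdyn* to *Penk* (0.0617), *Pdyn* to D1 markers (0.0538) and *Ipcef1* to *Oprm1* (-0.145, and -0.0266 with lane files 6 and 8 alone). Without the 2 libraries apart, an alternative chosen after seeing the data, they turned for *Oprd1* (0.00225), *Pdyn* (0.0890), *Pomc* (-0.10) and *Pdyn* to D1 markers (0.0235). With single mice left out they ran from -0.11 to 0.0257 for *Pdyn* (above 0 without B6 mouse 8 or Line 4a mouse 1), -0.17 to 0.0250 for *Pnoc* (above 0 without B6 mouse 1 or Line 4a mouse 2) and -0.15 to 0.0774 for *Pomc* (below 0 without B6 mouse 6 or Line 4a mouse 1). The cause of these changes was not tested.

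Expression showed little pairing of the genotypes by mouse number: same-numbered mice correlated with r from -0.12 to 0.36, 3 of 8 pairs were over 0.1, and 3 of 16 mice correlated best with their own number. These values cannot show whether same-numbered mice shared a litter or cage. With a replicate block 0 genes passed an FDR of 5%, *Ipcef1* was -0.62 (FDR 0.375 in edgeR's quasi-likelihood test), and *Oprm1* was -0.83 with its unadjusted p going from 0.0199 to 0.0555.

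Counting errors per mouse were largest for *Oprm1*, *Pomc* and *Pnoc*, at about 20.1%, 14.4% and 9.27%, and were below the biological coefficients of variation of these genes, 39.2%, 19.99% and 22.6%.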

Other observations

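Markers of the cells that make the opioid genes, and of their neighbours, were counted in the same way. Of 8 markers of striatal projection neurons 5 were higher and 3 lower in Line 4a, of 5 markers of D1 neurons 4 and 1, of 5 markers of D2 neurons 4 and 1, and of 5 striosome markers 1 and 4, with 0 under an unadjusted p of 0.05 in these 4 lists (edgeR's quasi-likelihood test). All 6 oligodendrocyte markers and all 6 microglial markers were higher, 3 of 6 astrocyte markers and 4 of 5 choroid plexus markers were higher, again with 0 under 0.05. Of 8 interneuron markers 4 were higher and 4 lower, with *Slc5a7*, the choline transporter of cholinergic interneurons, at 44.2 ± 3.99 and 50.4 ± 6.24 CPM (log2 fold change 0.19, FDR = 0.436) and *Vip* at 8.59 ± 1.97 and 6.34 ± 2.32 CPM (log2 fold change -0.44, FDR = 0.487). Of 6 hypothalamic markers tested 2 were higher, among them *Nkx2-1* (log2 fold change 0.32, FDR = 0.437), and of 5 markers of thalamus and septum 3 were higher and *Rora* was lower (log2 fold change -0.62, FDR = 0.457). None of these genes passed a 5% FDR, and *Slc5a7*, *Vip*, *Nkx2-1* and *Rora* are those with an unadjusted p under 0.05. Of all genes tested, 45.1% were lower in Line 4a, and 10% had an unadjusted p under 0.05 in either direction (edgeR's quasi-likelihood test).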
